A study of Mus musculus with 9 samples.

Results

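Claudins are the membrane proteins that make up the strands of tight junctions. The set described here held 8 of their genes, Cldn1, Cldn3, Cldn4, Cldn7, Cldn8, Cldn10, Cldn18 and Cldn23, with Ocln, which encodes occludin, and Tjp1, which encodes the scaffold ZO-1. The 10 genes were taken by their symbol from the 56748 genes of the table, and 9 of them had at least 10 normalized counts in at least 3 libraries and entered the tests with 17338 genes in all; Cldn18 did not. RNA was sequenced in wild-type primary airway basal stem cells of the mouse trachea, grown at an air-liquid interface (ALI), a culture whose upper face is exposed to air. Cells were collected on day 1, day 3 and day 5, with 3 libraries a day. In the submitters' design these days stand for proliferation, stratification and luminal specification. All 3 groups share the stated genotype and kind of culture, so each day is compared only with the other days. The labels give neither the age of the animals nor whether replicates are separate animals or cultures. The p-values therefore cover only the spread among these libraries, which may be technical.

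Tight junctions seal the space between neighbouring epithelial cells near their apical face. Claudins span the membrane, pair across the gap and set how tight the seal is and which ions pass through it. Occludin is a further membrane protein of the strand, and ZO-1 ties the strand to actin from the inside. In the airway epithelium, tight junctions keep inhaled material out of the tissue and help to hold the salt and water gradients of the airway surface liquid.

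Levels are normalized counts, the deposited log2 values returned to the linear scale. Depth ranged from 16.4 to 35.1 M reads a library, and its mean was 30.8 ± 4.29 M for day 1, 21.9 ± 2.55 M for day 3 and 17.6 ± 1.51 M for day 5 (SD, n = 3). All 8 basal cell markers were detected, with a summed level of 232355 to 251549 on day 1, 370351 to 427576 on day 3 and 210070 to 291622 on day 5. Krt5 was at 108199, 82486 and 38922 on the 3 days in turn, and Krt15, most of the day 3 sum, at 62675, 302633 and 195601. The 8 did not move together. By day 3, Krt14 fell from 38820 to 9822, Itga6 from 21556.5 to 4130 and Trp63 from 3811 to 1644. Ngfr rose from 359 to 1581 and Dapl1 from 42.5 to 153, and Pdpn was at 3639 and 3204. Summed Y-linked transcripts were 3027 to 3253 on day 1 and 300 to 575 on days 3 and 5, while Xist was 1548 to 2018 on day 1 and 5416 to 8698 later. Depth and these sex-linked levels ran with the day and cannot be told apart from it. In these bulk samples, fewer cells of a type and less RNA per cell cannot be told apart either.

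The genes moved in 3 different ways. Cldn3, Cldn4, Cldn7 and Cldn23 rose from day 1 to day 3 and fell from day 3 to day 5. Cldn1, Ocln and Tjp1 fell by day 3 and were not called between day 3 and day 5. Under some other settings Ocln and Tjp1 were called lower in that later step. Cldn8 rose over both steps and Cldn10 rose between day 3 and day 5. All changes are log2 changes of normalized count + 1 from limma fitted to all 17338 genes, with Benjamini-Hochberg adjustment at 0.05.

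The promoters of 3 claudins of the first pattern were set beside that of Cldn1, which went the other way. Each line is the 250 bases upstream of a RefSeq transcription start (GRCm38.p6), 5′ to 3′ on the gene's own strand. Capitals mark the letters CACCTG or CAGGTG, the E-box that repressors such as Snai1 and Zeb1 are known to bind in junction gene promoters.
Cldn3: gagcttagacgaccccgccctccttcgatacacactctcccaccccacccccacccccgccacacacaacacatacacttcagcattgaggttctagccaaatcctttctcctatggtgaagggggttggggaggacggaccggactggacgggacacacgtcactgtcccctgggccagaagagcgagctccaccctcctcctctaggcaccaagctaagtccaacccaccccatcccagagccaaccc
Cldn4: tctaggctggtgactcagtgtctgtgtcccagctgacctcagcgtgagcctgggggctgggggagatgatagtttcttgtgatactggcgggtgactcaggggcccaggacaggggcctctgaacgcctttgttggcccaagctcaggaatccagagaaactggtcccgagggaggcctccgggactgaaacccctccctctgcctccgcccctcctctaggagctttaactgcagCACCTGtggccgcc
Cldn7: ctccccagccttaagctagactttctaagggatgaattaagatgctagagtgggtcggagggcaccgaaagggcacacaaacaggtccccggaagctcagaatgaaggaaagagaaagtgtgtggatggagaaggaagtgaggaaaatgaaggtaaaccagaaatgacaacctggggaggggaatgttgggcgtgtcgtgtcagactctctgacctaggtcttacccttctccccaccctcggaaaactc
Cldn1: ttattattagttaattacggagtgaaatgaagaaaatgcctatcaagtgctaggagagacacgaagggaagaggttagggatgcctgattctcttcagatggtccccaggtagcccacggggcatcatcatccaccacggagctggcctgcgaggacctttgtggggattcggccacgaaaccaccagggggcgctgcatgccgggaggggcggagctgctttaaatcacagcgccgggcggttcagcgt
The windows lie at chr5:134985964-134986213 for Cldn3 on the plus strand, chr5:134946935-134947184 for Cldn4 on the minus strand, chr11:69964529-69964778 for the upstream start of Cldn7 on the plus strand and chr16:26371840-26372089 for Cldn1 on the minus strand. Cldn3 and Cldn4 are neighbours on chromosome 5 and are read from opposite strands. The E-box letters occurred once in the Cldn4 window, starting 14 bases before the start, and in 17.2% of the 32851 promoters of that length in the table. They were not in the windows of Cldn3, Cldn1 or the upstream start of Cldn7, and a second start of Cldn7 held 2 matches, as did a second start of Ocln. Over all member start sites, 3 of 12 held the letters. CpG pairs numbered 9 for Cldn3, 7 for Cldn4, 6 for Cldn7 and 14 for Cldn1, against a median of 6 over all promoters. Over the 12 start sites of the 8 members that matched the table (all but Cldn8 and Cldn23), AACCNGTT, the letters bound by Grainyhead-like factors, occurred in none, and in 1.79% of all promoters. TATAAA also occurred in none of the 12, and in 12.4% of all promoters. Both strands were searched, and these are matches of letters only.

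Cldn3, Cldn4 and Cldn7 encode the main barrier-forming claudins of many simple epithelia. Cldn3 was at 2279, 1755 and 2142 normalized counts in the day 1 libraries, 13349.8, 11484 and 11358 on day 3, and 4080, 5123 and 6057 on day 5. Every day 3 library lay above every other library, and the day 5 libraries lay above those of day 1. The log2 change was 2.55 from day 1 to day 3 (SE 0.15, limma adjusted p = 5.4e-07) and -1.26 from day 3 to day 5 (adjusted p = 4.9e-05), which left day 5 at 1.29 above day 1 (adjusted p = 1.9e-05).

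Cldn4 was the most abundant of the set on day 1, at 8124, 7714 and 8139 normalized counts. It reached 16015, 13701 and 18226 on day 3 and was at 4965, 6032 and 6478 on day 5. The 3 days did not overlap, and day 5 was the lowest of them. The log2 change was 0.99 to day 3 (SE 0.13, limma adjusted p = 5.6e-05), -1.46 from day 3 to day 5 (adjusted p = 6.8e-06) and -0.46 from day 1 to day 5 (adjusted p = 0.0080). The rise to day 3 was 0.23 and not called (adjusted p = 0.073) once a trend on transcript length and GC content was taken out. The change from day 1 to day 5 was -0.98 in that setting, -0.22 (adjusted p = 0.17) with upper-quartile scaling and -0.11 (adjusted p = 0.46) with quantile normalization.

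Cldn7, which is bound and stabilised by EpCAM, was at 4218, 3770 and 3953 normalized counts on day 1, 14976, 13779.7 and 12857 on day 3, and 3433, 4124 and 4782 on day 5. The day 3 libraries stood far above the rest, while days 1 and 5 overlapped. The change was 1.80 on the log2 scale to day 3 (SE 0.12, limma adjusted p = 1.1e-06) and -1.76 from day 3 to day 5 (adjusted p = 1.3e-06). Day 5 against day 1 gave 0.04 (adjusted p = 0.80), with a 95% interval of -0.24 to 0.31. That last value was called in opposite directions by other settings, at 0.46 with quantile normalization (adjusted p = 0.0033) and -0.29 once the length and GC trend was taken out (adjusted p = 0.0027).

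Cldn23 followed the same course at a lower level. Its libraries were at 313, 267 and 295 normalized counts on day 1, 703, 663 and 950 on day 3, and 495, 559 and 484 on day 5. No library of one day reached the range of another. On the log2 scale the change was 1.39 to day 3 (SE 0.14, limma adjusted p = 1.2e-05), -0.57 from day 3 to day 5 (adjusted p = 0.0053) and 0.81 from day 1 to day 5 (adjusted p = 4.5e-04). The later 2 values were -0.38 and 0.36 once the length and GC trend was taken out (adjusted p = 0.040 for each).

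**Figure D1:**
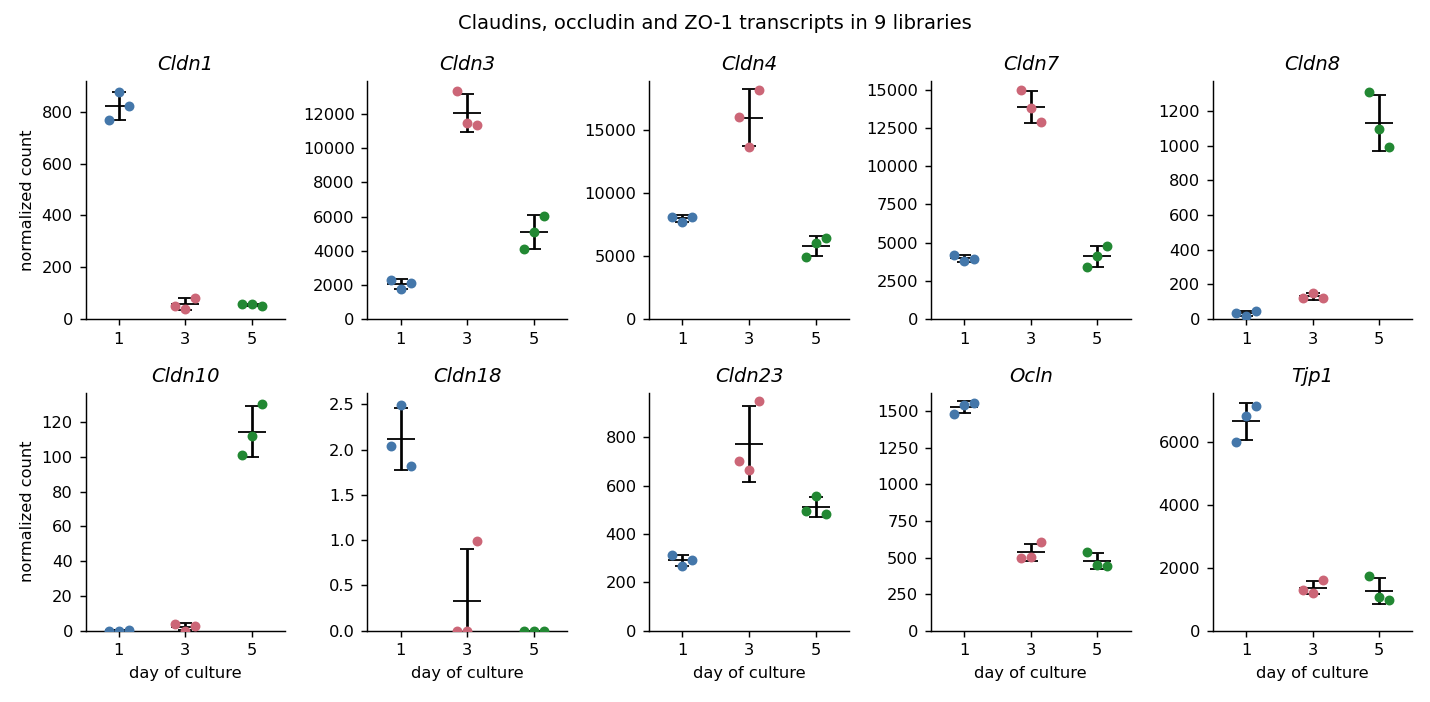
Normalized counts of the 10 genes in each of the 9 libraries (points) by day of ALI culture, with the mean of each day as a line and its SD over 3 libraries as a bar. Cldn3, Cldn4, Cldn7 and Cldn23 peak on day 3, Cldn1, Ocln and Tjp1 are highest on day 1, and Cldn8 and Cldn10 are highest on day 5.

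Cldn1, a claudin without which the skin barrier fails, had the largest fall of the tested members between day 1 and day 3. Day 1 libraries had 769, 876 and 824 normalized counts. Day 3 libraries had 52.5, 40.2 and 82.9, and those of day 5 had 57.5, 58.1 and 51.7. Days 3 and 5 overlapped and lay far below day 1. The log2 change to day 3 was -3.85 (SE 0.24, limma adjusted p = 6.3e-07). From day 3 to day 5 it was -0.01 (adjusted p = 0.98), with a 95% interval of -0.53 to 0.52.

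Ocln fell with it, to a lesser degree. It was at 1479, 1544 and 1557 normalized counts on day 1, 498, 503 and 603 on day 3, and 541, 452 and 444 on day 5. The log2 change was -1.52 to day 3 (SE 0.11, limma adjusted p = 1.6e-06) and -0.16 from day 3 to day 5 (adjusted p = 0.23, 95% interval -0.41 to 0.09). Once the length and GC trend was taken out, the later value was -0.46 (adjusted p = 3.9e-04).

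Tjp1 was at 5993, 6824 and 7121 normalized counts on day 1. Day 3 libraries had 1293, 1204 and 1608, and day 5 libraries 1742, 1075 and 971. Days 3 and 5 overlapped, and replicate 1 of day 5 was the highest of those 6 libraries. The log2 change was -2.29 to day 3 (SE 0.20, limma adjusted p = 3.7e-06) and -0.15 from day 3 to day 5 (adjusted p = 0.51, 95% interval -0.59 to 0.29). The later change was -0.41 (adjusted p = 0.021) without replicate 1 of day 5 and -0.54 (adjusted p = 0.0024) once the length and GC trend was taken out.

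Cldn8, a claudin of tight, sodium-absorbing epithelia, rose at each step. It was at 38.0, 17.4 and 45.5 normalized counts on day 1, 119.9, 152.6 and 121.4 on day 3, and 1308, 1093 and 994 on day 5. No day overlapped another. The steps were 2.03 on the log2 scale (SE 0.30, limma adjusted p = 1.3e-04) to day 3 and 3.10 (adjusted p = 1.1e-05) from there to day 5. They differed by 1.07, which did not pass the test (adjusted p = 0.089).

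Cldn10, whose isoforms form ion-selective pores, had 0, 0 and 1 reads in the day 1 libraries and 3, 0 and 3 on day 3. On day 5 it had 102, 87 and 106 reads, or 101.1, 112.3 and 130.5 normalized counts, so it passed the filter on low values through day 5 alone. Its day 5 level was 48.5 times that of day 3, with a counting interval of 22.0 to 133, and 492 times that of day 1, with an interval of 87.6 to 19489 that rests on a single read. These 95% intervals are exact and cover counting error only. The fitted log2 change from day 3 to day 5 was 5.43 (limma adjusted p = 1.5e-05), and 3.60 with a pseudocount of 8. From day 1 to day 3 it was 1.18 (adjusted p = 0.076, 95% interval -0.04 to 2.41). Quantile normalization moved this earlier change to 1.31, just past the threshold (adjusted p = 0.049). Leaving out replicate 2 of day 3, which had no read, gave 1.89 (adjusted p = 0.0017). Without replicate 1 or replicate 3 of day 3 it was lower and not called, at 0.76 (adjusted p = 0.26) and 0.90 (adjusted p = 0.21). Nor was it called with a pseudocount of 8, at 0.30 (adjusted p = 0.187). Once the length and GC trend was taken out it was 0.91 and not called (adjusted p = 0.165). The table does not separate the isoforms.

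Cldn18, which has a lung isoform, had 3 reads in each day 1 library, 0, 0 and 1 on day 3 and none on day 5. A count of 0 over the 3 day 5 libraries allows up to 1.15 normalized counts, and the day 1 levels were 1.82 to 2.49. The gene stood close to that limit throughout and did not pass the filter. With no filter it was called lower on day 3 than on day 1 (log2 change -1.30, limma adjusted p = 0.0094) and on day 5 than on day 1 (-1.63, adjusted p = 0.0021), from those few reads.

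Marker levels of other cell types also differed between the days. The 4 luminal keratins summed to 124575 to 133062 on day 1, 275821 to 306230 on day 3 and 72525 to 103049 on day 5. The 4 suprabasal and hillock markers summed to 66213 to 83969, 94192 to 106623 and 13014 to 21814, but did not move together. Krt4 and Krt13 were highest on day 3, at 33514 and 60955. Krt6a and Sprr1a were highest on day 1, at 33601 and 10182, and were at 5127 and 2687 on day 3. The sums of both lists were highest on day 3, as Cldn3, Cldn4, Cldn7 and Cldn23 were. The basal sum was highest on that day too, and so was that of 4 alveolar markers. The alveolar sum was 1231 to 2007, 3486 to 3592 and 1074 to 1612, most of it Hopx, at 1640, 3358 and 1043. The part of these cell types in those levels was not tested. The summed level of 6 of 6 detected secretory markers was 203 to 1110 on day 1, 20106 to 28881 on day 3 and 335998 to 434073 on day 5. Cyp2f2 made up most of it, at 773, 23567 and 294613. The others were low before day 5, with Scgb1a1 at 8.69, 96.8 and 18744 and Muc5ac at 3.57, 0 and 124. The 5 multiciliated markers summed to 15068 to 17003, 9940 to 11694 and 13359 to 15232, most of it Tubb4b, which was at 15760, 10571 and 10487. The other 4 were low before day 5, with Foxj1 at 2.01, 41.9 and 2594. Of the 3 ionocyte markers, which summed to 37.4 to 50.9, 17.5 to 25.4 and 386 to 424, Foxi1 was at 0, 0.329 and 154. Ascl3 was at 0.428, 8.11 and 201. Cftr went otherwise, at 42.3, 13.8 and 55.3, and was nearly all of the day 1 sum. Its days 1 and 5 did not differ (limma adjusted p = 0.37). The secretory and ionocyte sums and Foxj1 were highest on day 5, as Cldn8 and Cldn10 were, and their part in those levels was not tested. Of 6 fibroblast markers, the day 5 sum of 103 to 130 was nearly all Dcn (112 ± 16.1, SD, n = 3). The endothelial sum, over 5 markers, was 8.61 to 23.7 in all libraries. The leukocyte sum was 3.03 to 6.10 on day 1 and 63261 to 81450 on day 5, nearly all of it Lyz2 (70299 on day 5), while Tyrobp had no read.

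Counted over the set, 5 of the 9 tested members rose and 3 fell between day 1 and day 3, where 36.1% of all tested genes rose and 37% fell. Between day 3 and day 5, 2 rose and 4 fell, against 34.8% and 32.4% of all tested genes. Between day 1 and day 5, 4 rose and 4 fell, against 36.7% and 37.7%. Over that whole span the limma log2 change was -3.86 for Cldn1 (adjusted p = 1.6e-07), -1.68 for Ocln (3.2e-07), -2.44 for Tjp1 (1.2e-06), 5.13 for Cldn8 (1.2e-07) and 6.62 for Cldn10 (1.5e-06), the last 3.90 with a pseudocount of 8. The median log2 change of the members was 1.18, -0.16 and 0.04 in the 3 comparisons, and that of all tested genes 0.00, 0.06 and -0.06. The 1.18 is the value of Cldn10 itself, which was not called and had 1 read on day 1 and 6 on day 3. The libraries of both days did not overlap for 8, 6 and 8 of the 9, and for 77.3%, 71% and 76.8% of all tested genes. A difference across the days passed the limma F test for all 9 and for 91.4% of tested genes, and the later step differed from the earlier one for all but Cldn8 and for 70.7% of tested genes. Most genes of this culture changed, so these shares set none of the members apart. Cldn10 passed the filter through day 5 alone, so its place in the medians and in the counts that include day 5 cannot be read as support.

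**Figure D2:**
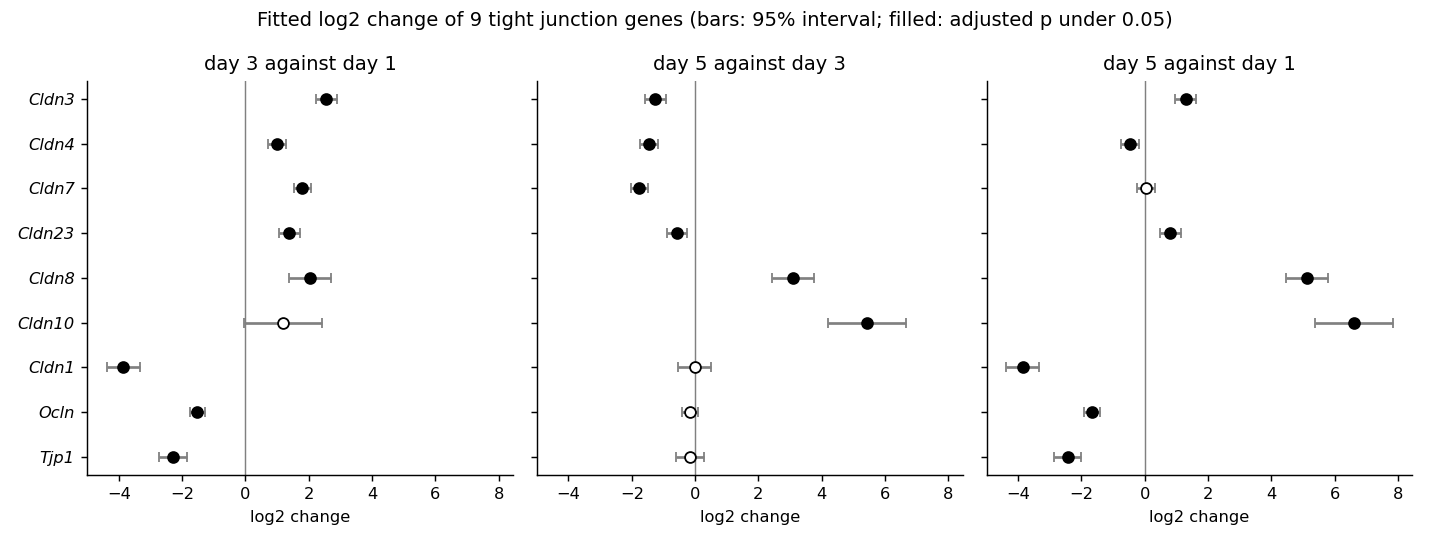
Log2 change of the 9 tested genes in each comparison from the limma fit, with bars for the 95% interval and filled points for an adjusted p under 0.05. Cldn3, Cldn4, Cldn7 and Cldn23 lie to the right of 0 in the first panel and to the left in the second, while Cldn1, Ocln and Tjp1 lie to the left in the first and at 0 within their intervals in the second.

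Of the members that rose by day 3, Cldn3, Cldn4, Cldn7 and Cldn23 have short, GC-rich transcripts, while Cldn8 has 2356 bases at 40.6% GC. Those that fell have longer ones. Cldn3 has 1259 bases at 62.8% GC, Cldn7 1335 at 57.0% and Cldn4 1816 at 56.8% (longest transcript, GENCODE M21). Cldn1 has 4145 bases at 39.0% GC, Ocln 4052 at 42.0% and Tjp1 7049 at 46.8%. When the trend of each day's difference on transcript length and GC content was removed across all genes, the day 3 against day 1 change was 1.60 for Cldn3, 1.04 for Cldn7, 0.74 for Cldn23, -0.94 for Ocln and -1.43 for Tjp1, all past the threshold. That of Cldn8 was 2.20. That of Cldn4 was 0.23 and no longer passed (limma adjusted p = 0.073). The day 5 against day 1 change of Cldn3 became 0.69, still called. From day 3 to day 5, quantile normalization gave -0.72 for Cldn3 and -0.88 for Cldn4, both still called.

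**Figure D3:**
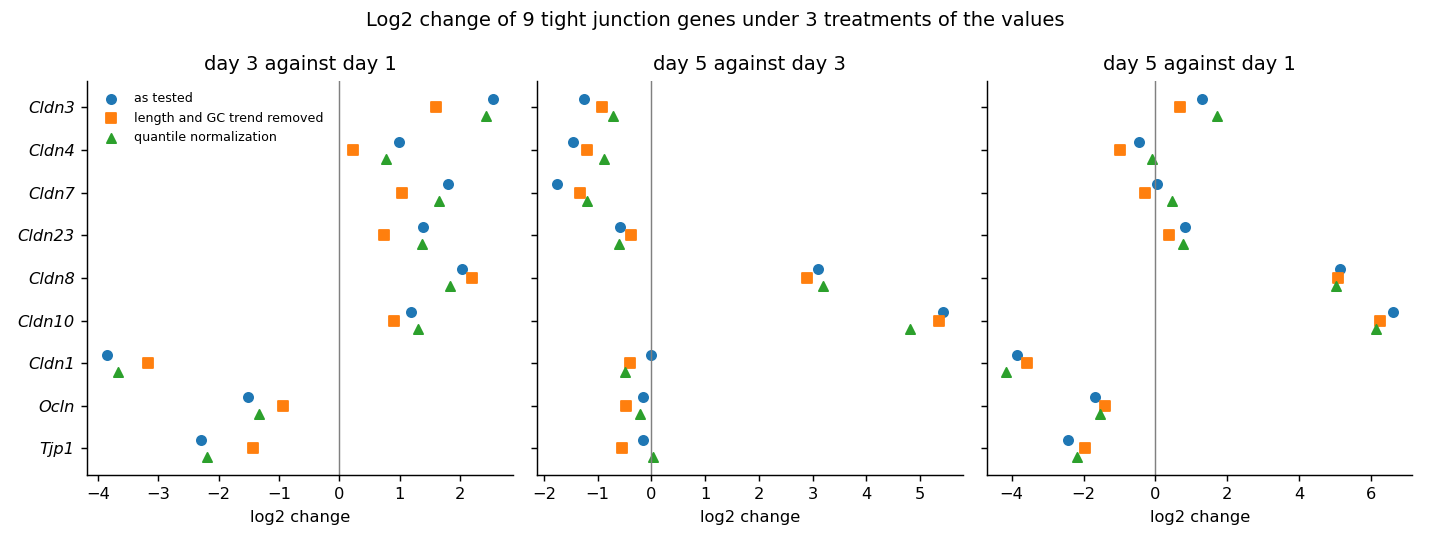
Log2 change of the 9 tested genes in each comparison as tested (circles), once the length and GC trend was taken out (squares) and with quantile normalization (triangles). Removing the length and GC trend moves the day 3 against day 1 values of Cldn4 and Cldn7 toward 0, to 0.23 and 1.04, and those of Ocln and Tjp1 to -0.94 and -1.43.

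Levels can be set against each other only per length. Per kilobase of transcript, the order on day 1 was Cldn4 (4401), Cldn7 (2982), Cldn3 (1635), Tjp1 (943), Ocln (377), Cldn1 (199), Cldn23 (158), Cldn8 (14.3), Cldn18 (0.507) and Cldn10 (0.0950), and no 2 neighbours overlapped. On day 3, Cldn7 (10390), Cldn3 (9582) and Cldn4 (8800) led with overlapping libraries. Cldn23 (418) came next, above Tjp1 (194) and Ocln (132), then Cldn8 (55.7) and Cldn1 (14.1), with Cldn10 and Cldn18 overlapping at the bottom. On day 5 Cldn3 (4040), Cldn4 (3208) and Cldn7 (3081) led, each overlapping the next, then came Cldn8 (480), Cldn23 (277), Tjp1 (179), Ocln (118), Cldn10 (53.9) and Cldn1 (13.4), and Cldn18 had no read. Cldn8 thus stood above Tjp1 and Ocln per kilobase on day 5 and below both on days 1 and 3.

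Summed over 34 claudin genes, the level per kilobase was 10154 ± 468 on day 1, 30509 ± 1966 on day 3 and 11443 ± 1648 on day 5 (SD, n = 3). The 8 member claudins made up 92.4%, 95.9% and 97.4% of it. Cldn4 took 43.4% ± 0.88 of the sum on day 1, 28.8% ± 3.39 on day 3 and 28.1% ± 0.61 on day 5. Cldn3 took 16.1% ± 1.42, 31.4% ± 1.77 and 35.1% ± 1.83. Cldn7 held 29.4%, 34.1% and 26.9%. Cldn1 went from 1.96% to 0.0461% and 0.120%, and Cldn8 from 0.139% and 0.184% to 4.32% ± 1.26. The claudin sums of days 1 and 5 were close, and their makeup was not: Cldn4 led on day 1 and Cldn3 on day 5. The length and GC trend was not taken out of these sums and shares.

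**Figure D4:**
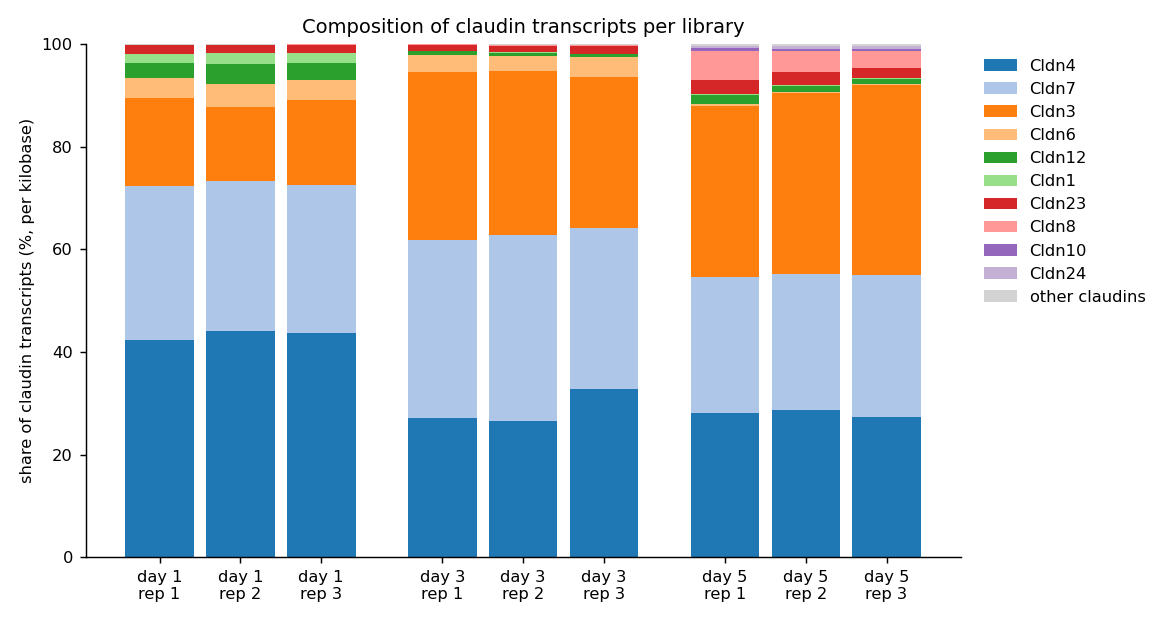
Share of each claudin in the summed claudin level per kilobase of transcript, in percent, for each of the 9 libraries (stacked bars). Cldn4 holds 43.4% on day 1 and 28.1% on day 5, Cldn3 goes from 16.1% to 35.1%, and Cldn8 reaches 4.32% on day 5. The length and GC trend was not taken out.

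Of 28 further claudin-family genes matched in the table, 6 passed the filter: 2 rose and 2 fell by day 3, 3 rose and 2 fell from day 3 to day 5, and 3 rose and 3 fell over the whole course. The shares of all tested genes that rose and fell were 36.1% and 37%, 34.8% and 32.4%, and 36.7% and 37.7%. The counts cannot be read as support, since 3 of the 6 passed the filter through day 5 alone. Cldn6, an embryonic claudin, rose and then fell, as Cldn4 did, and was at 670 ± 27.5, 1666 ± 322 and 58.4 ± 1.88 normalized counts. Its log2 change was 1.29 to day 3 (limma adjusted p = 1.6e-05) and -4.79 from day 3 to day 5 (adjusted p = 2.2e-08). Cldn12, which lacks the usual C-terminal PDZ-binding motif, fell at both steps, from 1278 to 688 and then 560. The claudin-domain gene Cldnd1 fell from 1871 to 1028 by day 3 and was at 990 on day 5. Cldn2, which forms a sodium and water pore, was at 1.21, 5.91 and 44.7 normalized counts, with 5, 16 and 121 reads in all, and was called higher at both steps. Cldn24 had 3, 2 and 106 reads in all on the 3 days in turn. Cldn34c1 was at 2.64, 0.833 and 25.3 normalized counts. Both rose from day 3 to day 5, and they and Cldn2 passed the filter through day 5 alone.

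Tjp3, which encodes ZO-3, a relative of ZO-1, ran against Tjp1. It rose from 1460 to 5110 normalized counts by day 3 (log2 change 1.85, SE 0.19, limma adjusted p = 8.6e-06) and was at 4737 on day 5. Ildr1, an angulin that recruits tricellulin to the corners where 3 cells meet, rose from 274 on day 3 to 1972 on day 5 (log2 change 2.84, adjusted p = 1.2e-07). Epcam, which was added after its values were seen, rose by 0.86 to day 3 (adjusted p = 2.1e-05) and fell by 0.42 from there to day 5 (adjusted p = 0.0034), the same directions as Cldn7. Crb3, an apical polarity protein, rose from 806 to 2005 and fell to 769. Amotl2 and Mpdz, scaffolds of the junction's inner face, fell to day 3 with log2 changes of -2.28 and -2.78. Pard6b, a subunit of the PAR polarity complex, fell by 1.26 from day 3 to day 5, and Amot rose by 1.68.

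Of the 29 tested scaffold and receptor genes, 7 rose and 17 fell by day 3 (median log2 change -0.63). From day 3 to day 5, 12 rose and 10 fell (0.14), and from day 1 to day 5, 6 rose and 15 fell (-0.37). Of all tested genes, 36.1% rose and 37% fell in the first comparison, 34.8% and 32.4% in the second and 36.7% and 37.7% in the third. The adherens junction, the cadherin-based contact just below the tight junction, had 3 rises and 11 falls among 15 genes by day 3 (-0.89), 4 and 8 from day 3 to day 5 (-0.26), and 0 and 11 over the whole course (-0.75), where 36.7% of all tested genes rose and 37.7% fell. Ctnnb1, which encodes beta-catenin, fell from 12343 ± 985 to 2378 ± 1559 by day 3 (SD, n = 3). It rose to 11151 ± 3878 by day 5, a course unlike that of Tjp1. Nectin2, a cell adhesion receptor, rose by 0.73 to day 3 and fell by 1.48 from there to day 5, and Pdlim1, an actin-linked adaptor, fell by 1.20 in that step. Lmo7 fell by 2.12 over the whole course. Vcl, which encodes vinculin, went from 3065 to 25.9 and 311, and Ctnnd1 rose by 0.53 to day 3. In GENCODE M21, 25.5% of the exon bases of Vcl and 61.2% of those of Ctnnd1 lie under other genes' exons. So do 14.6% of those of Ctnnb1, on the opposite strand. The values of Vcl, Ctnnd1 and Ctnnb1 are therefore uncertain, whereas the members shared none except Cldn3 with 3.18% on the opposite strand.

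Among 28 tested regulators of the junction, 11 rose and 12 fell by day 3 (median 0.02), 12 rose and 8 fell from day 3 to day 5 (0.05), and 14 rose and 9 fell over the whole course (0.15). The day 3 counts are near the 36.1% and 37% of all tested genes. Those shares were 34.8% and 32.4% from day 3 to day 5, and 36.7% and 37.7% over the whole course. Elf3, an epithelial ETS factor, rose from 3026 to 13037 by day 3 and fell to 4112. Rab13, a small GTPase of junction traffic, rose from 181 to 793 and fell to 329. Grhl3 and Klf4, transcription factors of barrier epithelia, fell from 1018 to 199.6 and from 5888.5 to 1263 by day 3, and to 79.7 and 612 by day 5. The airway factors Foxa1 and Nkx2-1 rose by 1.28 and 1.10 from day 3 to day 5. Prkcz, an atypical protein kinase C of the polarity complex, and Spint2, an inhibitor of membrane serine proteases, rose by 1.79 and 1.48 from day 1 to day 5.

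**Figure D5:**
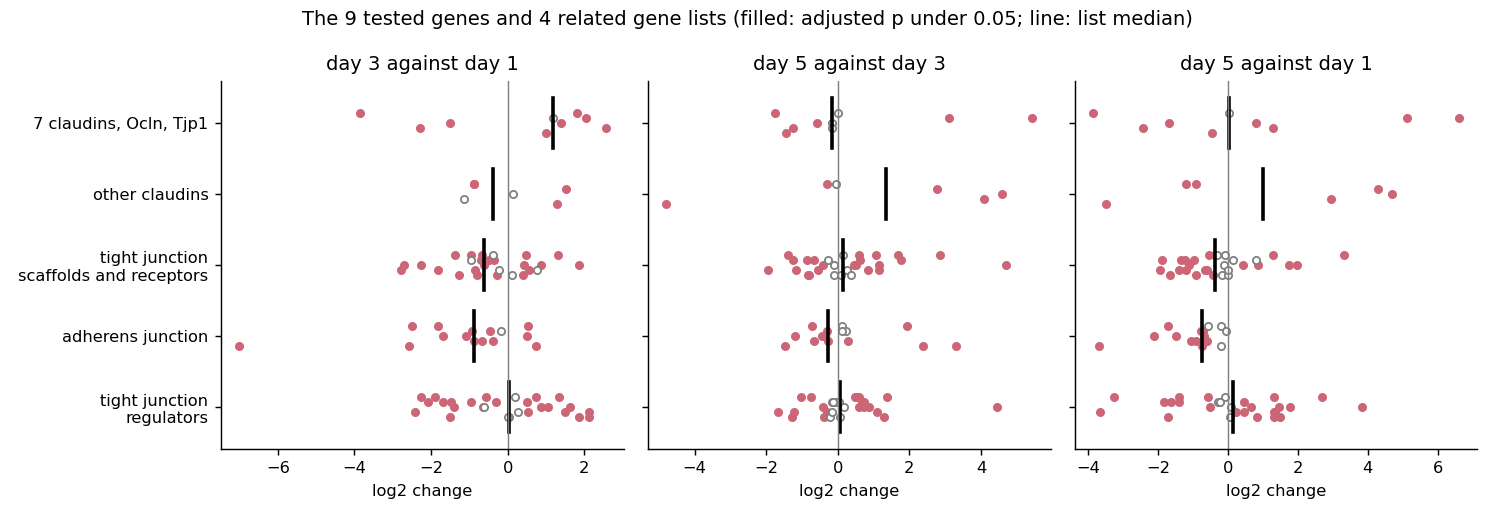
Log2 changes of the 9 tested genes and of 4 lists of related genes in each comparison (1 point a gene, filled for an adjusted p under 0.05, with the median of each list as a black line). The scaffold and receptor list and the adherens junction list have medians below 0 at day 3 against day 1, at -0.63 and -0.89, while the claudins, Ocln and Tjp1 lie on both sides.

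Across the 9 libraries, the profiles of Ocln and Tjp1 on the log2 scale had a Pearson r of 0.995, Cldn1 and Ocln 0.991, Cldn3 and Cldn23 0.951, Cldn8 and Cldn10 0.934 and Cldn4 and Cldn7 0.927, and the lowest pair was Cldn1 and Cldn3 at -0.855. The 9 libraries are 3 days, so these values describe the shape over days and share each library's depth. Among 11569 tested genes with a mean of at least 100 normalized counts, the profile nearest to each member was Dusp7 for Cldn1 (r = 0.996), Cep85 for Cldn3 (0.998), Cd81 for Cldn4 (0.990), Vnn1 for Cldn7 (0.999), Igfbp5 for Cldn8 (0.999), Adamts10 for Cldn10 (0.991), Maged2 for Cldn23 (0.984), Cul2 for Ocln (0.999) and Tnks2 for Tjp1 (0.999).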

How the data were processed

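The authors deposited log2 values, in which a read count was scaled by the library's size factor and no pseudocount was added. The submitters' processing notes name HISAT2 2.1.0, DESeq2 1.36.0 and the build GRCm39. The labels name total RNA and a VAHTS universal library kit. The counter, the annotation and the use of strand were not stated in these sources. Of 57107 lines, 359 repeats were dropped. The 297330 cells without a log2 value were read as 0. On the linear scale, 100% of the values were whole multiples of 1 read within 0.01 read, which gave the reads behind each value.

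limma 3.58.1 in R 4.3.3 (lmFit, eBayes with a trend) was fitted to log2(normalized count + 1) of the 9 libraries with 1 mean per day, for the 17338 genes that reached 10 normalized counts in 3 or more libraries. The pseudocount understates the change of low genes. Tests were two-sided at an adjusted p of 0.05 over all tested genes. The fit was tested on simulated data. Tables and figures used Python 3.11.15 and pandas 2.3.3. Transcript lengths came from GENCODE M21 on GRCm38, another build than the authors', and 98.3% of tested genes had one. Promoters came from RefSeq GRCm38.p6, whose coordinates are not those of the authors' build.

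The members and lists were chosen with earlier results of these data known. The genes named are the 10 members, the tested further claudins, for each other list and comparison the 2 largest called rises and falls with at least 100 normalized counts on either day, and the nearest profile of each member. The alternatives were other scaling, pseudocount and filter, the length and GC trend, leaving out each replicate and the replicate block.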

Additional observations from a re-analysis of the deposited data

How the results depend on the processing

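Of 510 values of single members under other settings, 487 kept both their direction and their side of the threshold, 8 newly passed it and 6 no longer passed it. A further 7 changed sign without passing it under either setting, all of them Cldn1 or Tjp1 on day 5 against day 3 or Cldn7 on day 5 against day 1. In the other 2, Cldn7 on day 5 against day 1 changed sign and passed, at -0.29 once the length and GC trend was taken out and -0.29 with that and the replicate block together. Tested on the log2 values as deposited, for genes with a read in every library, 1 member rose from day 3 to day 5 and 3 of the further claudins were called, because Cldn10 and other genes without a read in some library leave that test. Cldn23 no longer passed in the comparisons with day 5 under the block with the trend (limma adjusted p = 0.063 against day 3 and 0.062 against day 1). Upper-quartile scaling moved the median log2 change of all genes to 0.13, 0.16 and 0.19. Same-numbered libraries did not deviate together (correlations of -0.55 to 0.27), so the replicate numbers were not used to pair samples; with the replicate block, 6026 genes rose and 6180 fell by day 3, against 6254 and 6411. The cause of these differences was not tested. Depth limits Cldn10 and Cldn18, at 0 to 3 reads a library on days 1 and 3.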
